A study of Mus musculus with 3 samples.

Results

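The collagen genes are the genes that encode the chains of the collagens, and they were taken as every row of the deposited table whose symbol reads Col, a number, a and a number. This gave 44 of the 20368 genes in the table, from Col1a1 to Col28a1. The lipid transfer gene Col4a3bp does not end after the number and was not a member. Of the 44, 11 encode fibril-forming chains, 9 fibril-associated chains, 6 chains of the basement membrane network, 6 chains of beaded filaments, 4 transmembrane collagens, 3 short-chain network collagens and 2 multiplexins, and 3 others fall outside these groups. Their levels are described here in 8 classes of cells of the neonatal mouse cortex.

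Collagen chains are made in the endoplasmic reticulum, where they are hydroxylated and wound into triple helices, and are then secreted, trimmed and cross-linked into the extracellular matrix. Fibril-forming collagens build the fibres of connective tissue, such as the meninges that cover the brain, while type IV collagen forms the sheet-like network of basement membranes. In the brain, basement membranes surround the blood vessels, where endothelial cells and pericytes share one, and line the outer surface beneath the meninges, whereas the tissue between the cells holds little fibrous collagen.

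The tissue was the prefrontal cortex of mice of both sexes, taken on postnatal day 6 on the day of a single exposure to inhaled sevoflurane, a volatile anaesthetic, at about 3%. It was profiled in 3 droplet libraries of single cells on the 10x Genomics Chromium platform, sequenced on an Illumina NovaSeq instrument. All 3 libraries belong to 1 group and no unexposed group was analysed here, so cell classes of exposed tissue are compared with each other and the effect of sevoflurane is not addressed. Whether each library came from its own animals is not given in the labels, and the p-values therefore measure only the spread between these 3 libraries, which may be technical. The labels describe freezing and Trizol extraction, which does not tell how single cells were obtained.

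A cell was put in a class when both of 2 marker genes were above 0, and cells that met 2 or more such rules were dropped. The pairs were Dcn and Lum for fibroblasts, Cldn5 and Flt1 for endothelium, Kcnj8 and Vtn for pericytes, Acta2 and Myh11 for smooth muscle, Aqp4 and Gja1 for astrocytes, Pdgfra and Lhfpl3 for oligodendrocyte precursor cells (OPCs), P2ry12 and Csf1r for microglia, and Dlx1 and Sp9 for neuroblasts, the young migrating interneurons. Of 14192 cells, 11329 (79.8%) fell in 1 class, 2054 in none and 809 in several. The classes held 64 fibroblasts, 773 endothelial cells, 791 pericytes, 45 smooth muscle cells, 3449 astrocytes, 2766 OPCs, 1632 microglia and 1809 neuroblasts. Fibroblasts numbered 28, 18 and 18 and smooth muscle cells 10, 17 and 18 in libraries 1, 2 and 3, so their levels rest on few cells. The smooth muscle rule also lost 72 of its 117 cells (61.5%), 67 of which met the pericyte rule too. A total of 90 barcode sequences occurred in more than 1 library. Median genes per cell ran from 1866 in neuroblasts and 1892.5 in microglia to 2945 in smooth muscle.

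Levels are given in CPM: the depth-corrected counts of each cell were scaled to a total of 1000000 and averaged over the cells of a class within a library, and a class level is the mean ± SD of the 3 libraries. The classes were checked with longer marker lists. In fibroblasts 8 of 9 listed fibroblast markers reached 100 CPM, but 3 of 7 astrocyte markers did too, namely Gja1 at 979.3, Slc1a3 at 777.4 and Gjb6 at 382.3 CPM, while the defining astrocyte gene Aqp4 was at 0. The summed astrocyte markers in fibroblasts averaged 2189 CPM, against 11513 CPM in astrocytes. In pericytes 3 of 9 fibroblast markers reached 100 CPM (summed level 2092 to 2285 CPM), namely Mgp at 840.5 CPM, Slc6a20a at 283.1 CPM and Pdgfrb. The defining genes Dcn and Lum were at 1.5 and 0.3 CPM. Pdgfrb stands on both the fibroblast and the pericyte list and was below 100 CPM in fibroblasts. The fibroblast marker sums of pericytes and smooth muscle therefore include a gene that is also a pericyte marker. Fibroblast markers summed to 3342 to 5352 CPM in smooth muscle, where 3 of 9 reached 100 CPM, with Mgp at 3518 CPM and with Dcn and Lum at 0. Pericyte markers summed to 20879 to 28747 CPM in smooth muscle, with Kcnj8 at 0, and to 3591 to 7774 CPM in fibroblasts, where 1 of 8 reached 100 CPM, Vtn at 5445 CPM, and where Kcnj8 and Abcc9 were at 0. In microglia the 4 border macrophage markers summed to 631 CPM on average, with Mrc1 at 410.5 CPM. What part these markers had in the collagen levels was not tested, except in the splits given below.

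Collagen transcripts were concentrated in the rare stromal and mural cells. Fibroblasts were 0.451% of all cells and held 10.9% of all collagen counts, and pericytes, 5.57% of cells, held 27.5%. Endothelium, 5.45% of cells, held 12.4%, and smooth muscle, 0.317% of cells, held 2.20%. Astrocytes and OPCs were 24.3% and 19.5% of cells and held 9.57% and 12.4% of the counts. Microglia and neuroblasts, 11.5% and 12.7% of cells, held 0.895% and 1.27% of the counts. The dropped cells that met 2 or more rules, 5.70% of cells, held 13.7% of the counts. They held 18.5% of the Col4a1, 18.3% of the Col4a2 and 18.7% of the Col18a1 counts. Cells of no class, 14.5% of cells, held 9.15%. The median cell held transcripts of 17 different collagen genes in fibroblasts, 7 in smooth muscle, 6 in pericytes, 3 in endothelium, 2 in OPCs and 1 in astrocytes. In microglia and neuroblasts the median was 0. Summed over all collagens, fibroblasts reached 18246 ± 1493 CPM, smooth muscle 5337 ± 571, pericytes 4299 ± 175 and endothelium 1688 ± 103, against 553 ± 53.0 in OPCs, 310 ± 28.5 in astrocytes, 88.3 ± 13.7 in neuroblasts and 66.8 ± 7.69 in microglia.

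A total of 34 collagens reached a mean of 10 CPM in at least 1 class. Of these, 23 were highest in fibroblasts, 4 in smooth muscle, 3 in OPCs, 2 in pericytes and 1 each in astrocytes and endothelium. In 27 of the 34 the 3 libraries of the highest class lay above every library of the next class, and in 7 the ranges overlapped: Col11a1, Col9a2, Col8a2, Col14a1, Col22a1, Col4a1 and Col5a3. The remaining 10 stayed below 10 CPM in every class. Col24a1 reached 8.21 and Col20a1 5.15 CPM in OPCs, Col4a4 reached 7.59 CPM in fibroblasts, Col25a1 2.86 CPM in pericytes and Col2a1 1.57 CPM in astrocytes. Col6a4, Col6a5, Col6a6 and Col17a1 had means below 1 CPM in every class, and Col10a1, the hypertrophic cartilage collagen, had 1 count in the whole table, in a cell of no single class. Levels are compared across classes for the same gene, not between genes, because counts were not scaled to transcript length.

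**Figure D1:**
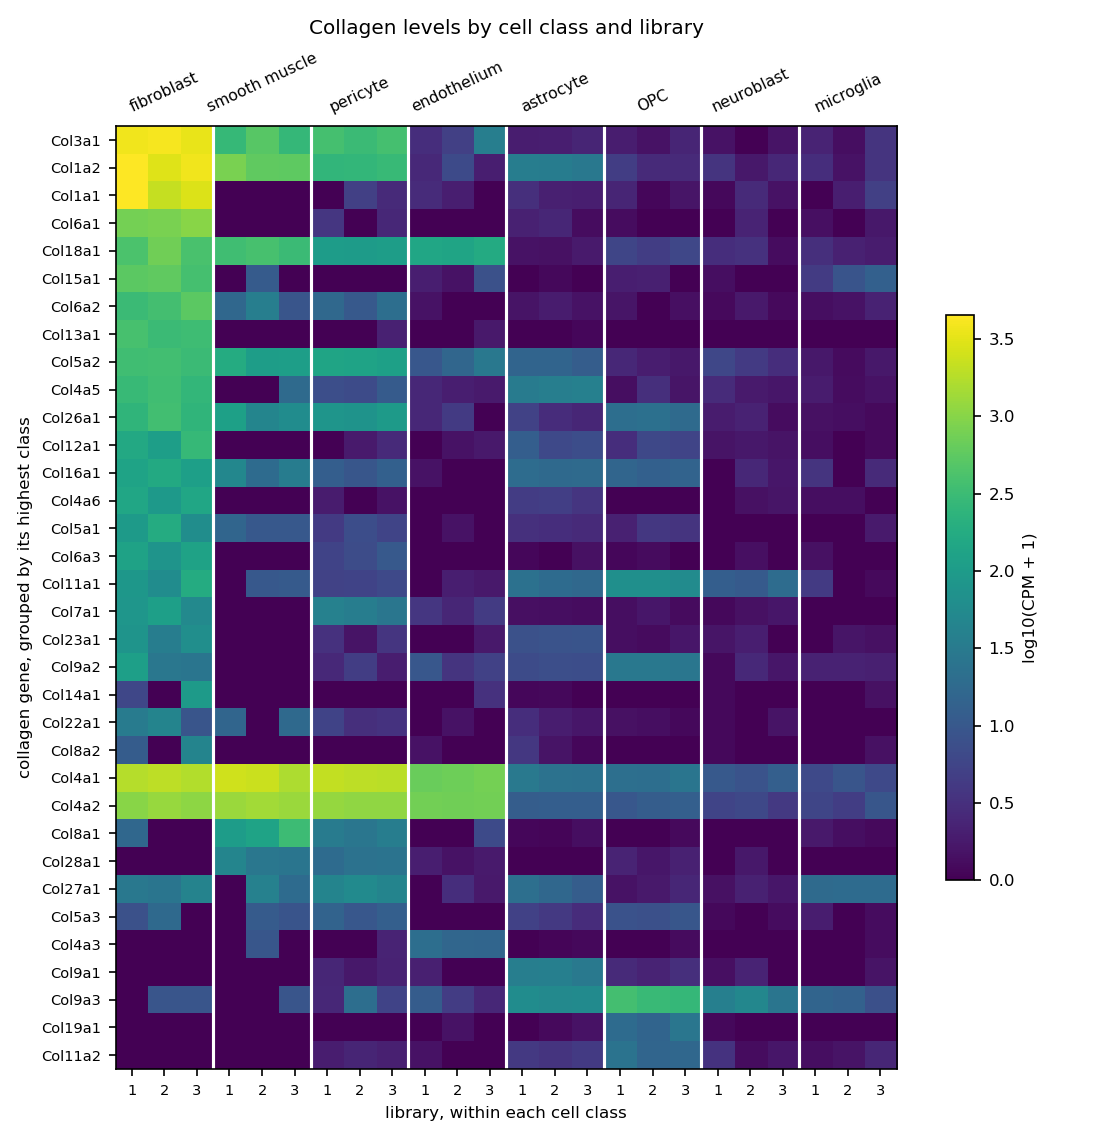
Levels of the 34 collagens that reached 10 CPM, as log10(CPM + 1) by colour. Columns are the 3 libraries of each of 8 cell classes, and rows are genes grouped by their highest class. The fibroblast columns are the brightest for 23 genes, the Col4a1 and Col4a2 rows are bright across all 4 vessel and stromal classes, and Col9a1, Col9a3, Col19a1 and Col11a2 are brightest in astrocytes or OPCs.

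Promoter windows from RefSeq (build GRCm38.p6, the build mm10 named in the submitters' processing notes), which run from 250 bases before to 50 bases after a start site, matched 35 of the 44 genes with 38 windows. The pair Col4a1 and Col4a2 is shown because its members are transcribed head to head on chromosome 8 and were present together in nearly every vessel cell, as described below. Their annotated start sites lie 21 bases apart, and their windows share 78 bases, chr8:11312777-11312854, in capitals. The Col4a1 window is chr8:11312777-11313076 on the minus strand and the Col4a2 window is chr8:11312555-11312854 on the plus strand, each written 5′ to 3′ on its own strand.
Col4a1: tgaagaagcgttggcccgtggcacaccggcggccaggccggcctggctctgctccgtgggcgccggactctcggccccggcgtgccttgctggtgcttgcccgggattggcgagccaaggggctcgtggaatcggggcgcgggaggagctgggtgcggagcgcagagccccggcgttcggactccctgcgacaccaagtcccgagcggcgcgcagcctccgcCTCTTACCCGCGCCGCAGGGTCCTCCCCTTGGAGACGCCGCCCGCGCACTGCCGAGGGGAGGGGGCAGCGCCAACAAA
Col4a2: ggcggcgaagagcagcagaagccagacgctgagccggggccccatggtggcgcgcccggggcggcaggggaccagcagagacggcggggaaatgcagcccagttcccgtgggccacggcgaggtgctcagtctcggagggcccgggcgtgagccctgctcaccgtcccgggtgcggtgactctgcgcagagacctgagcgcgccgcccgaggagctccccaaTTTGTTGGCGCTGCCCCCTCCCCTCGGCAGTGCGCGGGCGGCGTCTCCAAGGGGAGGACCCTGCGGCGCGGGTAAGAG
Col1a2 and Col3a1 are shown because both were high in fibroblasts, smooth muscle and pericytes while in astrocytes Col1a2 averaged 32.0 CPM and Col3a1 1.12 CPM. The motif CCAAT, searched on both strands, is in capitals wherever it or its reverse complement occurs, and occurred 2 times in the Col1a2 window (chr6:4505368-4505667, plus strand) and 0 times in the Col3a1 window (chr1:45311288-45311587, plus strand).
Col1a2: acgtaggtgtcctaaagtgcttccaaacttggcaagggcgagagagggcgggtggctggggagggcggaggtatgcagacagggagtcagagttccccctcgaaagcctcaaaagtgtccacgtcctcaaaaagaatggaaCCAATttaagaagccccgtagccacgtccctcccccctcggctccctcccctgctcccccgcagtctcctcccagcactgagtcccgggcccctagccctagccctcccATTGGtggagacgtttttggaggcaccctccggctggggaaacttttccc
Col3a1: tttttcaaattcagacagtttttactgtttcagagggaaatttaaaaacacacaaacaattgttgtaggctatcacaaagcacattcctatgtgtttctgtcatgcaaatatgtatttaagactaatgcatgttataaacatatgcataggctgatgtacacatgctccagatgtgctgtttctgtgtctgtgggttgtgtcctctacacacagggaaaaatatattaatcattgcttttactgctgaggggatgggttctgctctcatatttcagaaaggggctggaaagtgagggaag
CCAAT was found in 34.2% of the 38 collagen windows and in 37.4% of all 32851 windows. The motif GGGCGG, on either strand, was found in 60.5% and 35.7%, and the motif TATAAA, on either strand, in 13.2% and 13.6%. A match describes letters in a window and says nothing of a factor.

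The main fibre-forming genes separated fibroblasts from the mural cells by chain. Col1a1, the alpha 1 chain of type I collagen, read 4529, 2143 and 2893 CPM in the fibroblasts of libraries 1, 2 and 3. In pericytes it read 0, 3.89 and 1.74 CPM, from 9 counts in 791 cells, and in smooth muscle 0 in all 3 libraries. Fibroblasts stood apart from every other class without overlap, at least 306-fold above smooth muscle when the latter is set to 3 counts over the class. Col1a2, the alpha 2 chain of the same protein, read 4419, 2975 and 3723 CPM in fibroblasts, 819.2, 585.8 and 553.8 in smooth muscle, and 257.9, 266.8 and 290.6 in pericytes. Its 3 highest classes thus did not overlap, and the mural cells held Col1a2 with almost no Col1a1. Of 45 smooth muscle cells 43 had Col1a2 and none Col1a1 (a count of 0 allows up to 6.67% of cells), and of 791 pericytes 559 had Col1a2 and 9 Col1a1. All 64 fibroblasts had both.

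Col3a1, the type III chain that forms fibrils with type I collagen in soft tissue, read 3803, 4084 and 3379 CPM in fibroblasts, 276.2, 500.4 and 275.2 in smooth muscle, and 381.6, 312.8 and 377.8 in pericytes. Fibroblasts were far above both mural classes, which overlapped each other. Endothelium averaged 13.9 ± 18.9 CPM, with 35.7 CPM in library 3, from 8 of 773 cells. Among pericytes, the 559 cells with Col1a2 held Col3a1 at 405 ± 49.96 CPM and the 232 without it at 244 ± 13.3 CPM, so both groups held it. Acta2, a smooth muscle gene, averaged 127 ± 61.5 CPM in the former and 8.94 ± 4.41 CPM in the latter, and its part in this difference was not tested.

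**Figure D2:**
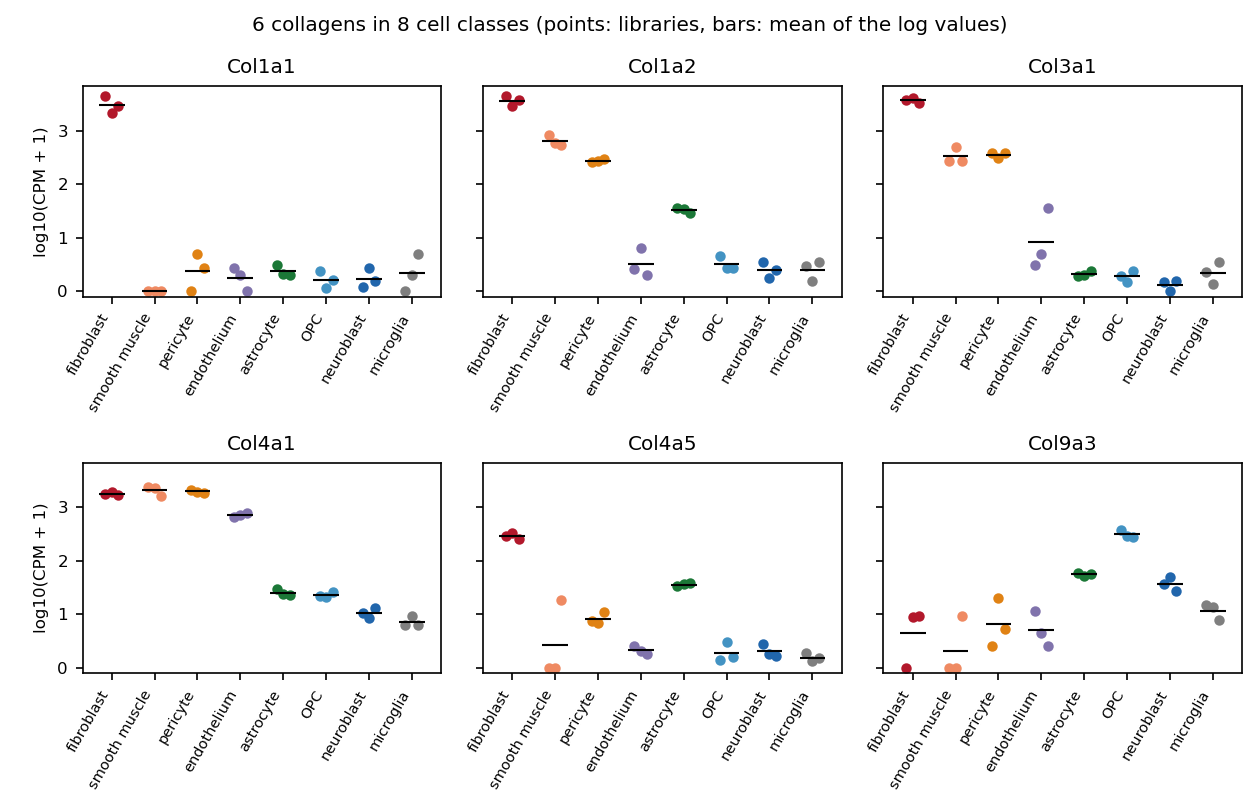
Levels of 6 collagens in 8 cell classes as log10(CPM + 1). Each point is 1 library and each bar is the mean of the 3 log values. Col1a1 is high in fibroblasts and near 0 elsewhere, Col1a2 and Col3a1 are also high in smooth muscle and pericytes, Col4a1 is high in all 4 vessel and stromal classes, Col4a5 is high in fibroblasts and next in astrocytes, and Col9a3 is highest in OPCs.

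The ratio of Col1a2 to Col3a1 within a library was 2.97, 1.17 and 2.01 in smooth muscle and 0.676, 0.853 and 0.769 in pericytes, so that every smooth muscle library exceeded every pericyte library. The ratio was 2.51-fold higher in smooth muscle (exact permutation test, two-sided p = 0.1, the smallest that 3 libraries against 3 can give, 0.12 after Benjamini-Hochberg adjustment over 6 ratio tests). In fibroblasts it was 1.16, 0.728 and 1.102, which overlapped the pericyte values (1.28-fold, exact permutation p = 0.3, adjusted 0.3). Fibroblasts lay below smooth muscle in every library (a 1.96-fold difference, exact permutation p = 0.1, adjusted 0.12).

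**Figure D3:**
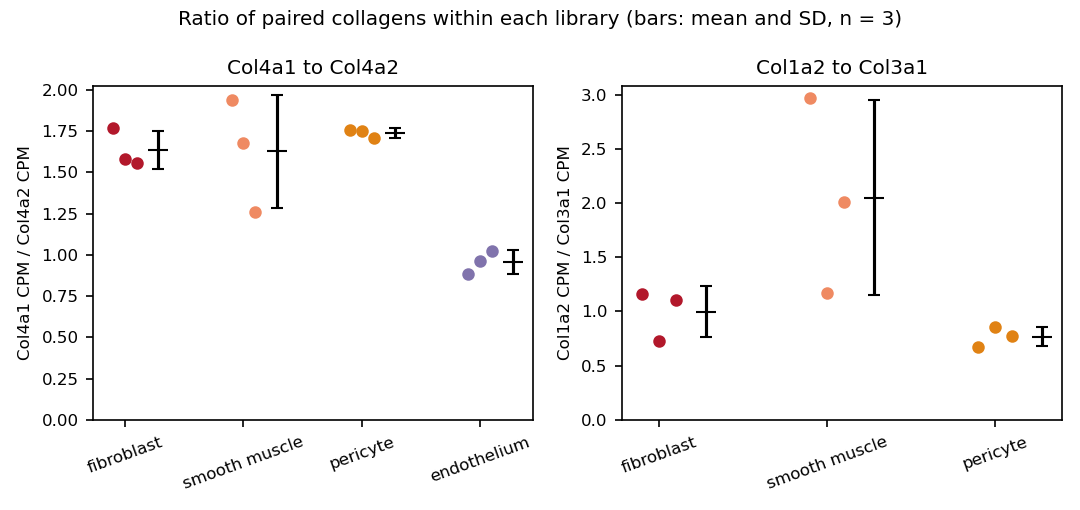
Ratio of Col4a1 to Col4a2 CPM in each library of the 4 vessel and stromal classes, and of Col1a2 to Col3a1 CPM in fibroblasts, pericytes and smooth muscle. Points are libraries and bars are mean and SD of 3. The 3 endothelial ratios of Col4a1 to Col4a2, 0.884 to 1.03, lie below all others, and the 3 smooth muscle ratios of Col1a2 to Col3a1, 1.17 to 2.97, lie above those of fibroblasts and pericytes. Endothelium, with 8 cells holding Col3a1, is not drawn in the second panel.

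The minor fibril-forming genes were more widely spread. Col5a2, a type V chain that joins type I fibrils, read 333 ± 17.9 CPM in fibroblasts, 131 ± 37.6 in smooth muscle, 127 ± 7.73 in pericytes, 17.3 ± 9.85 in endothelium and 13.1 ± 1.69 in astrocytes. The other type V chain Col5a1 read 112 ± 58.4 CPM in fibroblasts and 10.9 ± 2.94 in smooth muscle. The latter held 1.59% of the 189 Col5a1 counts and lay near the 10.4 CPM that 3 counts over the class amount to. Col5a3 was the exception, with 11.4 ± 2.25 CPM in pericytes, 7.85 ± 8.31 in fibroblasts and 7.53 ± 0.934 in OPCs, whose library ranges overlapped. Col11a1, a type XI chain known from cartilage and the inner ear, was found on both sides of the stromal divide. It read 85.6, 58.7 and 176.9 CPM in fibroblasts and 65.5, 65.2 and 56.9 CPM in OPCs, ranges that overlapped, then 18.8 ± 2.95 in astrocytes and 13.3 ± 4.78 in neuroblasts. Among the classes, its partner chain Col11a2 reached 10 CPM only in OPCs, at 23.3, 14.4 and 15.5 CPM, and was at 0 in fibroblasts and smooth muscle. Col11a2 was higher, at 103 ± 19.98 CPM, in 347 cells of no class with transcripts of both Bcas1 and Enpp6, described below. Col27a1, a fibrillar chain of developing cartilage, read 47.8 ± 6.23 CPM in pericytes, 31.7 ± 9.45 in fibroblasts, 19.2 ± 19.8 in smooth muscle, 17.9 ± 0.564 in microglia and 15.8 ± 4.65 in astrocytes, against 0.937 in OPCs and 0.773 in neuroblasts.

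Type IV collagen, the scaffold of basement membranes, had its common chains in all 4 vessel and stromal classes. Col4a1 read 2446, 2340 and 1619 CPM in smooth muscle, 2121, 1961 and 1886 in pericytes, 1775, 1966 and 1709 in fibroblasts, and 657.8, 711.3 and 769.9 in endothelium. The first 3 classes overlapped and endothelium lay below them all. Col4a2 read 1312 ± 72.0 CPM in smooth muscle, 1144 ± 55.3 in pericytes, 1114 ± 121 in fibroblasts and 744 ± 5.80 in endothelium. The endothelial deficit was thus greater for Col4a1 than for Col4a2. The ratio of the pair was 0.884, 0.963 and 1.03 in endothelium and 1.76, 1.75 and 1.71 in pericytes, a 1.82-fold difference without overlap (exact permutation test, two-sided p = 0.1, the smallest possible, adjusted 0.12). Against smooth muscle the difference was 1.68-fold and against fibroblasts 1.71-fold, with the same exact permutation p and adjusted value. The protein is assembled from 2 alpha 1 chains and 1 alpha 2 chain, which is background and was not measured. The gene models overlap by 22 bases at their start and lie on opposite strands, and whether counting used strand is not given in the sources used here.

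Both genes of the pair were detected in 97.5% of pericytes, 92.4% of endothelial cells, 95.3% of fibroblasts and all 45 smooth muscle cells. In the neural classes the 2 were found at low levels and were seldom detected in the same cell. Such shares follow from how often each gene is detected. Alone they do not show whether the pair is coupled, in vessel or in neural cells. Col4a1 read 24.6 ± 3.43 CPM in astrocytes, 22.0 ± 2.92 in OPCs, 9.66 ± 2.16 in neuroblasts and 6.33 ± 1.65 in microglia, and 41 of 3449 astrocytes had both genes against 423 with Col4a1 alone. Of the astrocytes with Col4a2, 18.6% also had Col4a1, against 13.3% and 13.5% of the 2 astrocyte groups described next. Splitting the astrocytes by any transcript of the vessel genes Vtn, Rgs5, Dcn or Cldn5 gave Col4a1 at 25.1 ± 2.04 CPM in the 1129 cells with one and 24.3 ± 4.73 CPM in the 2320 without. The same split of OPCs gave Col4a1 at 22.0 ± 2.70 and 22.1 ± 5.05 CPM, but Col4a2 at 14.5, 16.3 and 14.8 CPM in the 716 cells with such a transcript and 6.67, 9.11 and 10.4 CPM in the 2050 without, so for Col4a2 the libraries did not overlap. The haemoglobin gene Hbb-bs, made by red blood cells, averaged 2836 CPM in astrocytes and 2661 CPM in OPCs, and the part of free RNA in the low Col4a1 and Col4a2 levels was not tested.

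The minor type IV chains divided differently. Col4a5 read 294.0, 336.3 and 260.3 CPM in fibroblasts, and the next class was not a vessel class but astrocytes, at 32.1, 35.2 and 38.0 CPM. Pericytes followed at 7.48 ± 2.27 CPM, below every astrocyte library, and endothelium at 1.14 CPM. Col4a6, which neighbours Col4a5 head to head on the X chromosome with 1308 bases between the gene models, read 146.9, 94.4 and 144.8 CPM in fibroblasts and 3.33 ± 0.560 CPM in astrocytes, with 0 in endothelium, smooth muscle and OPCs. Of 32 fibroblasts with Col4a6, 28 (87.5%) also had Col4a5, which 48 of all 64 fibroblasts had. Of the third pair, Col4a3 and Col4a4, whose gene models lie 71 bases apart head to head on chromosome 1, Col4a3 read 19.6, 15.1 and 14.4 CPM in endothelium and 0 in fibroblasts and neuroblasts. Col4a4 was not raised beside it: its highest level was 7.59 ± 1.799 CPM in fibroblasts from 3 of 64 cells, followed by 5.87 ± 3.35 in neuroblasts and 5.72 ± 2.25 in astrocytes.

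Type VI collagen forms beaded filaments around cells, from chains encoded by Col6a1, Col6a2 and Col6a3. Col6a1 read 784.4, 837.6 and 1005 CPM in fibroblasts and was at 0 in endothelium and smooth muscle, which puts fibroblasts at least 1479-fold above endothelium and at least 84.1-fold above smooth muscle, since 3 counts over those classes amount to 0.592 and 10.4 CPM. Col6a2 read 405 ± 118 CPM in fibroblasts, 19.8 ± 14.2 in smooth muscle and 15.3 ± 5.30 in pericytes. The chains therefore parted in the mural cells, where 58 of 791 pericytes had Col6a2 and 5 had Col6a1. Col6a3 read 110 ± 28.7 CPM in fibroblasts and 6.73 ± 2.66 in pericytes. Col6a1 and Col6a2 are neighbours in the same direction on chromosome 10, with 85161 bases between their gene models.

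The fibril-associated collagens, which decorate other fibrils, included Col9a3, which was found mainly in neural cells. Col9a3, a type IX chain, read 368.3, 295.8 and 275.7 CPM in OPCs, 59.1, 52.1 and 55.3 in astrocytes, 36.7, 48.8 and 25.7 in neuroblasts, and 13.9, 12.6 and 6.92 in microglia, an order in which no library of a class overlapped the next. In the vessel and stromal classes it averaged at most 8.50 CPM. In 347 cells of no class with transcripts of both Bcas1 and Enpp6, described below, Col9a3 averaged 1211 ± 168 CPM, above its OPC level. A transcript was found in 67.2% of OPCs, 26.6% of astrocytes and 13.6% of neuroblasts, against 1.55% of endothelial cells and 3.55% of microglia. Thinned to 4000 corrected counts per cell the shares were 58.7%, 18.7%, 10.7%, 1.13% and 2.79%. Median corrected counts per cell were 5272 in OPCs and 6693 in endothelium. Col9a3 shares exon bases with Tcfl5 on the opposite strand, so reads of the 2 genes could not be told apart if counting ignored strand.

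The other 2 chains of type IX collagen differed from each other. Among the classes Col9a1 was highest in astrocytes, at 35.1, 37.3 and 28.7 CPM against 1.70 ± 0.376 CPM in OPCs. Col9a1 was not confined to astrocytes. In 347 cells of no class with transcripts of both Bcas1 and Enpp6, described below, it averaged 40.7 ± 2.81 CPM. The next neighbour of Col9a1 on the chromosome, Col19a1, lies 9205 bases away tail to tail. Among the classes Col19a1 was highest in OPCs, at 17.9, 13.9 and 26.3 CPM against 0.247 CPM in astrocytes. Col9a2, like Col9a3, was higher in OPCs than in the other neural and microglial classes, at 28.2, 28.3 and 26.0 CPM against 6.16 ± 0.359 in astrocytes, 1.19 ± 0.0901 in microglia and 0.844 ± 0.753 in neuroblasts, and it read 113.7, 27.3 and 25.4 CPM in fibroblasts, where the mean of 55.5 CPM rested on library 1. Among 2766 OPCs, 1859 had Col9a3, 378 had Col9a2 and 25 had Col9a1, and 275 of the 378 (72.8%) also had Col9a3, against 67.2% of all OPCs. OPCs with and without a transcript of the proliferation genes Mki67 or Top2a held Col9a3 at 279 ± 56.2 and 325 ± 46.2 CPM.

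Of the 5 remaining fibril-associated genes 4 were highest in fibroblasts. The fifth, Col20a1, was among the classes highest in OPCs, at 5.93, 3.97 and 5.54 CPM, and at 0 in fibroblasts. It averaged 10.8 ± 1.90 CPM in the 347 cells of no class with Bcas1 and Enpp6. Col12a1 read 158.3, 110.1 and 280.7 CPM in fibroblasts and 7.68 ± 3.16 CPM in astrocytes. Col16a1 read 138 ± 24.7 CPM in fibroblasts, 33.0 ± 14.8 in smooth muscle, 17.4 ± 0.967 in astrocytes, 13.4 ± 1.08 in OPCs and 10.8 ± 1.91 in pericytes. Col22a1 read 28.2 ± 18.2 CPM in fibroblasts and 10.5 ± 9.12 in smooth muscle, from 10 and 3 cells. Col14a1 read 5.09, 0 and 97.3 CPM in fibroblasts, so its level there came mostly from library 3, in 5 of 64 cells over all libraries.

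The multiplexins Col15a1 and Col18a1 encode basement membrane collagens that carry heparan or chondroitin sulphate chains, and Col18a1 also encodes the endostatin fragment. Col18a1 spanned all vessel and stromal classes, at 414.7, 724.7 and 402.3 CPM in fibroblasts, 344 ± 39.0 in smooth muscle, 151 ± 19.7 in endothelium and 104 ± 3.99 in pericytes. It was the only tested collagen called lower in pericytes than in endothelium, a call that was lost under the 3 alternatives given below. Col15a1 was a fibroblast gene, at 534.0, 583.4 and 382.5 CPM, and was at 0 in all 3 pericyte libraries, at least 738-fold lower. Microglia came next at 3.33, 7.96 and 12.3 CPM, with a transcript in 4.60% of cells, against 0.0580% of astrocytes and 0.111% of neuroblasts. Most microglia, 1058 cells, had a transcript of the border macrophage genes Mrc1, Pf4 or Lyve1, and 574 had none. Those with one held Col15a1 at 8.74 ± 4.44 CPM and those without at 6.09 ± 5.56 CPM, with 0 in library 1. Col27a1 read 16.9 ± 2.03 and 20.4 ± 3.53 CPM in the 2 groups.

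Col13a1, a transmembrane collagen of cell adhesion sites, read 385.0, 313.8 and 333.4 CPM in fibroblasts and below 1 CPM in every other class. Col23a1, another transmembrane collagen, read 58.3 ± 22.3 CPM in fibroblasts and 7.501 ± 0.369 CPM in astrocytes. Col8a1, a short-chain network collagen of vessel walls, was higher in the mural classes than in fibroblasts. It read 103.9, 131.2 and 317.1 CPM in smooth muscle, 32.2, 26.2 and 34.2 in pericytes and 15.5, 0 and 0 in fibroblasts. Its relative Col8a2 read 10.6, 0 and 43.2 CPM in fibroblasts, from 6 cells, and 0 in pericytes, smooth muscle and OPCs. Col28a1 read 44.6, 26.8 and 25.01 CPM in smooth muscle and 18.2, 23.3 and 24.05 in pericytes, without overlap, and 0 in fibroblasts, which are at least 4.34-fold below smooth muscle and at least 2.95-fold below pericytes. Smooth muscle held only 5.08% of the 177 Col28a1 counts, so the gap between 25.01 and 24.05 CPM is too narrow to rank the 2 mural classes. Col7a1, the anchoring fibril collagen of skin, read 81.8, 113.6 and 52.3 CPM in fibroblasts, 39.3, 34.5 and 26.6 in pericytes and 0 in smooth muscle. Col26a1 read 282 ± 63.5 CPM in fibroblasts, 83.4 ± 11.5 in pericytes, 73.8 ± 39.5 in smooth muscle and 19.7 ± 1.79 in OPCs.

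Differences between classes were tested with limma on log2(CPM + 10) with library as a block. A gene entered when the average of its 8 class levels reached 10 CPM, which 9881 genes did, 24 of the 44 collagens among them. A gene called here has a Benjamini-Hochberg adjusted p below 0.05. Most of the 24 passed that filter through the class in which they were high, so the counts below describe them and give no support for a difference from other genes. The lists of collagen-handling genes below passed the same filter, and their counts are description too. Pericytes enter 3 of the comparisons and astrocytes 3, so that these share libraries and cells. The added 10 CPM draws the differences of genes with low levels toward 0. The spread of a gene was estimated once over all 8 classes, so its SE is the same in every comparison of 2 classes. An SE therefore does not describe the 2 compared classes alone.

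Fibroblasts against pericytes gave 19 collagens called higher, 1 lower and 4 not called, where 33.1% of all tested genes were called, 14.2% higher and 18.8% lower. The median log2 difference was 2.84 over the collagens and -0.06 over all genes. The difference was 8.02 ± 0.21 (SE) on the log2 scale for Col1a1 (limma adjusted p = 1.45e-16), 6.27 ± 0.13 for Col6a1 (2.58e-18), 3.70 ± 0.17 for Col1a2 (4.73e-13) and 3.36 ± 0.32 for Col3a1 (4.56e-08). Col13a1 and Col4a6 were called higher by 5.09 and 3.70 on that scale, and since pericytes held 2 counts of each, the ratios of 860 and 278 have counting intervals of 238 to 7099 and 77.0 to 2296. The smallest called increases were Col7a1 at 1.05 ± 0.17 and Col5a2 at 1.32 ± 0.22. Col8a1 was called lower, with a ratio of 5.98 (counting interval 2.05 to 29.0, from 3 fibroblast counts). The basement membrane pair was not called: the log2 difference of Col4a1 was -0.13 (95% interval -0.42 to 0.16, limma adjusted p = 0.518) and that of Col4a2 -0.04 (-0.28 to 0.20, 0.814), and those of Col27a1 and Col9a3 were -0.49 (-1.18 to 0.20) and -0.19 (-0.89 to 0.51).

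Among the genes that make and handle collagen, fibroblasts were called higher than pericytes for 9 of 16 tested biosynthesis genes and lower for none, led by the transcription factor gene Creb3l1 (log2 difference 3.35) and the prolyl hydroxylase gene P4ha2 (1.71). Of 7 processing and cross-linking genes 5 were higher and 1 lower. The lysyl oxidase gene Lox had a log2 difference of 2.90, and Adamts2, which trims procollagen, read 81.7 CPM in fibroblasts against 2 counts in pericytes (ratio 187, counting interval 51.7 to 1544). Of 6 collagen receptors 1 was higher, 2 were lower and 3 were not called, the lower ones being the integrin chains Itga1 (-4.59) and Itgb1 (-1.39). Basement membrane partners divided into 5 higher and 7 lower of 13, led by the laminin gene Lama1 (2.99) and Agrn (-2.41). Interstitial matrix partners had 5 higher and 1 lower of 9, with Fbln2 at 4.13 and the small proteoglycan gene Aspn at -4.29. For breakdown and uptake 7 of 10 were higher and 2 lower, with Mmp2 at 3.78 and Mmp9, at 105 CPM in pericytes and 0 in fibroblasts, at least 14.2-fold lower. Beside these counts, 14.2% of all tested genes were called higher and 18.8% lower.

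Smooth muscle against pericytes gave 4 collagens called higher, 3 lower and 17 not called, where 22.4% of all tested genes were called, 9.06% higher and 13.4% lower. Over the collagens the median difference was -0.06 and over all genes -0.07 on the log2 scale. Col8a1 was higher by 2.09 ± 0.31 on the log2 scale (limma adjusted p = 5.38e-05), Col18a1 by 1.64 ± 0.18 (1.37e-06), Col1a2 by 1.21 ± 0.17 (1.79e-05) and Col16a1 by 0.99 ± 0.20 (0.00106). Col7a1, at 0 in smooth muscle, was at least 3.22-fold lower there. Col27a1 was lower by 1.26 on the fitted log2 scale, and was not called without library 1 (-0.67, limma adjusted p = 0.126) or without library 3 (-1.42, 0.0695). Col6a3 was called lower too, but its 6.73 CPM in pericytes lies under the 10.4 CPM that 3 counts over the smooth muscle class amount to, so at this depth no difference could be shown. When only these 2 classes entered the fit, or with limma's array weights, 4 collagens were called, and Col16a1, Col27a1 and Col6a3 no longer were (limma adjusted p = 0.256, 0.232 and 0.0646 in the former). Col4a1 and Col4a2 differed by 0.08 (95% interval -0.21 to 0.37) and 0.20 (-0.04 to 0.44) on the log2 scale, and Col3a1 by -0.08 (-0.74 to 0.59).

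In smooth muscle 4 of 7 processing and cross-linking genes were higher than in pericytes and none lower, led by Lox (log2 difference 3.71) and by Adamts2, at 16.8 CPM against 2 pericyte counts (ratio 38.4, counting interval 10.6 to 317). Of 16 biosynthesis genes 3 were higher and 5 lower, led by the export receptor gene Mia3 (-1.32) and the prolyl isomerase gene Ppib (-0.96). Receptors had 1 of 6 higher, Ddr2 (1.13), and 1 lower, Adgrg1, whose 5.73 CPM in pericytes lies under the smooth muscle floor. Basement membrane partners had 2 of 13 higher and 4 lower, with Lamb2 at 1.12 and the perlecan gene Hspg2 at 60.8 CPM in pericytes against 3 smooth muscle counts (ratio 7.03, counting interval 2.41 to 34.1). Interstitial partners had 2 of 9 higher and 1 lower, Fmod (3.80) and Postn (-2.11) at the extremes. Breakdown genes had 2 of 10 higher and 2 lower, with Timp3 at 2.46 and Mmp9 at least 10.1-fold lower. The shares over all tested genes were 9.06% higher and 13.4% lower.

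Pericytes against endothelium gave 12 collagens called higher, 1 lower and 11 not called, where 36.8% of all tested genes were called, 22.3% higher and 14.5% lower. Collagens had a median log2 difference of 0.63, or 0.83 with those at 0 in 1 class set to their bound, and 0.14 over all genes. The fibre-forming genes led: Col1a2 was higher by 4.48 ± 0.17 on the log2 scale (limma adjusted p = 1.28e-14), Col3a1 by 4.21 ± 0.32 (8.64e-10) and Col5a2 by 2.39 ± 0.22 (1.58e-08). Of the basement membrane pair Col4a1 was higher by 1.47 ± 0.14 (2.87e-08) and Col4a2 by 0.61 ± 0.11 (0.000207). Col26a1 (3.02 ± 0.24), Col27a1 (2.40 ± 0.33), Col8a1 (1.81 ± 0.31) and Col7a1 (1.78 ± 0.17) were also higher. Col6a3 was at 0 in endothelium, which is at least 11.4-fold lower, and Col6a2 and Col16a1 had 1 endothelial count each (ratios 87.8 and 65.0, counting intervals 15.8 to 3467 and 11.7 to 2566). Col18a1 was lower in pericytes by 0.50 ± 0.18 (limma adjusted p = 0.0371). It was no longer called with 1 CPM added in place of 10 (-0.53, 0.244), without library 1 (-0.53, 0.145) or without library 3 (-0.43, 0.195). With no filter on low values, where 23.6% of 19951 genes were called, 12.4% higher and 11.2% lower, Col4a3 was lower in pericytes, which held 2 counts (ratio 38.5, counting interval 10.7 to 318).

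**Figure D4:**
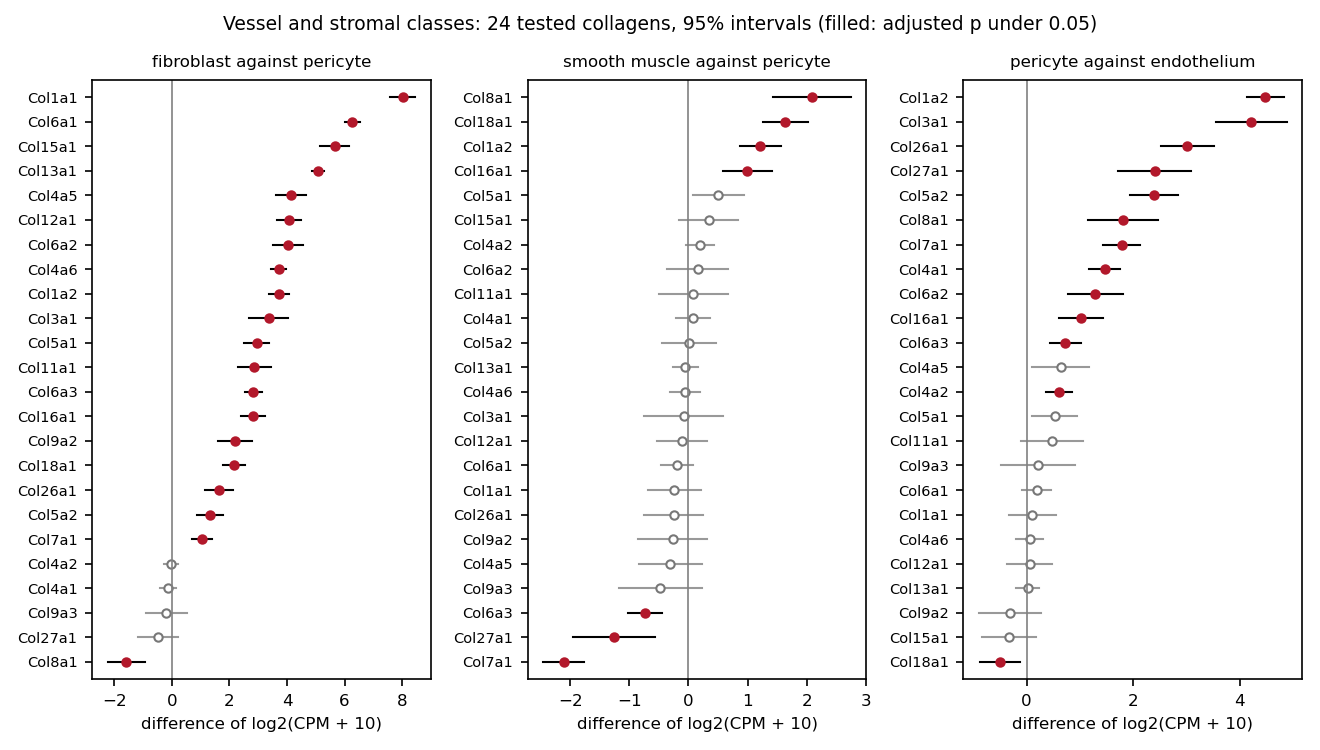
Differences of log2(CPM + 10) for the 24 tested collagens in 3 comparisons, with 95% intervals from the limma fit. Filled points have an adjusted p below 0.05. Between fibroblasts and pericytes 19 filled points lie right of 0 while Col4a1 and Col4a2 lie at 0, between smooth muscle and pericytes most points lie near 0, and between pericytes and endothelium Col1a2 and Col3a1 lie farthest right. A point for a gene at 0 in a class depends on the added 10 CPM.

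Pericytes were also higher than endothelium for 9 of 16 biosynthesis genes and lower for 2, led by the prolyl and lysyl hydroxylase family genes P3h3 (log2 difference 3.03) and Plod2 (2.35). Of the processing genes 4 of 7 were higher and none lower, with the procollagen processing enhancer Pcolce at 5.03 and Loxl3 at 3.44. Receptors had 4 of 6 higher and 1 lower, with Itga1 at 2.51 and Ddr2 at 1.97. Basement membrane partners had 7 of 13 higher and 3 lower, led by the laminin genes Lama2 (3.62) and Lamc3 (3.28). Interstitial partners had 5 of 9 higher and 2 lower, with Aspn at 5.07 and Postn at 156 CPM against 2 endothelial counts (ratio 457, counting interval 126 to 3772). Breakdown genes had 7 of 10 higher and 2 lower, with Ctsk and Mmp9 at 112 and 105 CPM in pericytes and 2 counts each in endothelium (ratios 279 and 243). Over all tested genes 22.3% were called higher and 14.5% lower.

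OPCs against astrocytes gave 4 collagens called higher, 5 lower and 15 not called, where 31.6% of all tested genes were called, 19.6% higher and 12% lower. Medians were -0.03 over the collagens and 0.14 over all genes on the log2 scale. Col9a3 was higher in OPCs by 2.29 ± 0.33 on the log2 scale (limma adjusted p = 1.53e-05), Col11a1 by 1.33 ± 0.28 (0.000795), Col26a1 by 1.24 ± 0.24 (0.000325) and Col9a2 by 1.21 ± 0.28 (0.00194). With 1 CPM added in place of 10, Col9a3 and Col11a1 missed the threshold (2.47 and 1.69, limma adjusted p = 0.0522 and 0.0939). Astrocytes were higher for Col4a5 by 2.03 ± 0.25 (the OPC value being lower by that amount, limma adjusted p = 2.16e-06), Col1a2 by 1.77 ± 0.17, Col27a1 by 1.22 ± 0.33 and Col5a2 by 1.06 ± 0.22. Col4a6, at 0 in OPCs, was at least 17.0-fold lower there. Col27a1 was not called without library 3 (-1.39, 0.0662), and Col4a6 not without library 1 (-0.40, 0.101), without library 3 (-0.45, 0.0562) or when both markers of a class had to reach 2 counts (-0.39, 0.0515).

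Several collagens with raised levels in 1 glial class fell under the filter on low values. Without it, 17 of 43 collagens were called, 8 higher and 9 lower, where 25.6% of 19951 genes were, 15.2% higher and 10.4% lower. Col19a1 (1.499 ± 0.09), Col11a2 (1.09 ± 0.08), Col24a1 (0.79 ± 0.13) and Col20a1 (0.57 ± 0.04) were then higher in OPCs on the log2 scale, with limma adjusted p-values of 5.13e-10, 1.28e-08, 0.000221 and 1.55e-09. Col9a1 was lower in OPCs by 1.90 on that scale (SE 0.07, limma adjusted p = 7.17e-13) and Col23a1 by 0.75 (SE 0.15, 0.0013). Col4a1 and Col4a2 were not called in either fit, with log2 differences of -0.12 (95% interval -0.41 to 0.18) and -0.06 (-0.30 to 0.18) where the filter was used. In astrocytes Col1a2 read 35.0, 33.3 and 27.8 CPM in libraries 1, 2 and 3, above every OPC library. Col1a2 and Col4a5 were present there whether or not a cell had a transcript of Vtn, Rgs5, Dcn or Cldn5: 34.5 ± 2.71 and 30.7 ± 4.73 CPM for Col1a2, 39.2 ± 7.74 and 33.1 ± 0.5002 CPM for Col4a5. In 181 astrocytes with a transcript of the ependymal genes Foxj1, Ccdc153 or Tmem212, Col4a5 read 53.0 ± 10.6 CPM, against 34.3 ± 3.19 CPM in the other 3268. In the same 2 groups Col5a2 read 24.2 ± 7.06 and 12.6 ± 1.76 CPM, and Col27a1 27.8 ± 6.45 and 15.1 ± 4.21 CPM. The libraries of the groups overlapped for Col1a2 and Col16a1. Col9a1, Col9a3 and Col11a1 averaged lower in the 181 cells. What part these cells had in the comparison with OPCs was not tested.

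Neuroblasts against astrocytes gave 9 collagens called lower and none higher, where 49.4% of all tested genes were called, 19.8% higher and 29.5% lower. The median log2 difference was -0.29 over the collagens (-0.34 with bounds) and -0.11 over all genes. The largest were Col4a5 at -2.02 ± 0.25 (limma adjusted p = 1.19e-06), Col1a2 at -1.86 ± 0.17 (9.77e-09), Col16a1 at -1.35 ± 0.20 (9.12e-06) and Col27a1 at -1.24 ± 0.33 (0.00357). Col4a1 (-0.82 ± 0.14) and Col4a2 (-0.58 ± 0.11) were lower as well, and Col5a2, Col12a1 and Col4a6 were the other 3. Col9a3 was not called, at -0.50 with a 95% interval of -1.20 to 0.19, nor was Col11a1, at -0.32 (-0.91 to 0.26). When values were centred on the median gene of each class, 1 was called higher and 6 lower, the former being Col13a1 with levels near 0 in both classes, while the median of all genes moved from -0.11 to 0.17. Col5a2, Col12a1 and Col4a6 were then not called, Col12a1 and Col4a6 also not without library 1 and Col5a2 not without library 2.

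Microglia against astrocytes gave 10 collagens called lower and 1 higher, where 52.2% of all tested genes were called, 17.1% higher and 35.1% lower. Collagens had a median log2 difference of -0.25 and all genes one of -0.26. Col4a5 (-2.09 ± 0.25), Col1a2 (-1.84 ± 0.17), Col9a3 (-1.65 ± 0.33), Col11a1 (-1.38 ± 0.28) and Col16a1 (-1.27 ± 0.20) were the 5 largest, with limma adjusted p-values of 6.96e-07, 8.95e-09, 0.000329, 0.000315 and 1.86e-05. Col5a2, Col4a1, Col12a1, Col4a2 and Col4a6 were the others, and centring on the median gene moved the split to 4 higher and 7 lower (median of all genes from -0.26 to 0.11), with Col12a1, Col4a2 and Col4a6 no longer called. Col12a1 was not called without library 1 (-0.65, limma adjusted p = 0.0819), Col4a2 not without library 2 (-0.36, 0.0558), and Col4a6 not without library 1 (-0.38, 0.0812) or library 3 (-0.40, 0.0558). Col15a1 was higher in microglia by 0.80 ± 0.24 (limma adjusted p = 0.00909), with 2 astrocyte counts (ratio 116, counting interval 32.1 to 959). It missed the threshold without library 3 (0.62, 0.0669) and when cells with border macrophage or ependymal transcripts were left out (0.61, 0.0564). The latter setting kept 574 of 1632 microglia. Col27a1 was not called, at 0.13 with a 95% interval of -0.55 to 0.82.

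**Figure D5:**
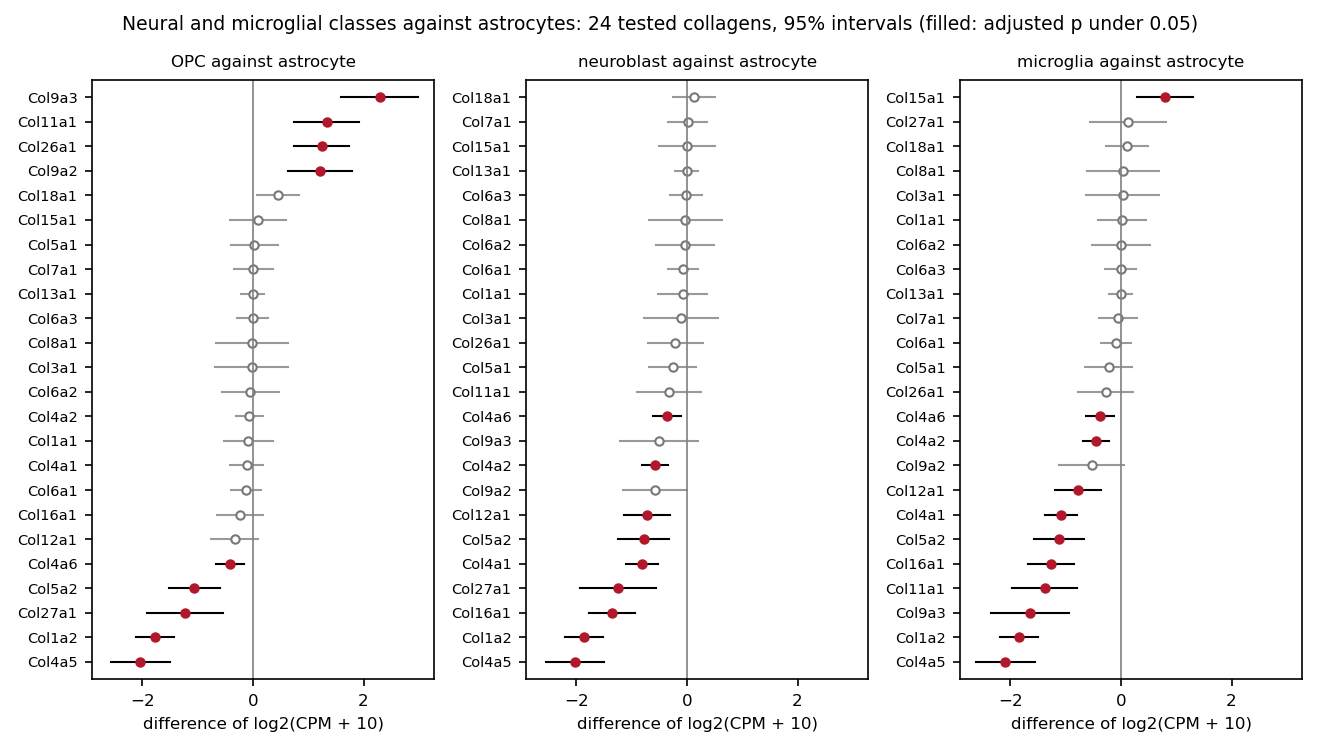
Differences of log2(CPM + 10) for the 24 tested collagens in OPCs, neuroblasts and microglia, each against the same astrocytes, with 95% intervals from the limma fit. Filled points have an adjusted p below 0.05. Col9a3, Col11a1, Col26a1 and Col9a2 are the 4 filled points right of 0 for OPCs, no filled point lies right of 0 for neuroblasts, and Col15a1 is the filled one for microglia, while Col4a5 and Col1a2 lie farthest left in all 3 panels.

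The same astrocyte values enter each of the next 3 comparisons of collagen-making genes. The collagen chaperone gene Serpinh1, at 386 CPM in astrocytes, was lower by 3.38 in OPCs, 3.85 in neuroblasts and 4.03 in microglia on the log2 scale (limma adjusted p = 7.79e-15, 1.19e-15 and 1.6e-16). Of 16 biosynthesis genes OPCs were higher for 1 and lower for 5, neuroblasts higher for none and lower for 13, and microglia higher for 3 and lower for 6. For microglia these shares lay near the 17.1% higher and 35.1% lower of all tested genes, and 10 of the 16 were not called in OPCs. The shares of all tested genes were 19.6% higher and 12% lower in OPCs, and 19.8% and 29.5% in neuroblasts. The other leading genes were Fkbp10 in OPCs (-2.90) and neuroblasts (-2.91) and Plod2 in microglia (-3.19). Processing genes were lower for 1 of 7 in OPCs, 3 in neuroblasts and 2 in microglia, and higher for none. The lower counts of OPCs and microglia lay near the shares of all tested genes. Loxl1 led in all 3 (-1.86, -1.89 and -1.86), followed by Bmp1, which trims procollagen, in neuroblasts (-1.36) and microglia (-1.50).

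Of 6 collagen receptors OPCs were lower for 4, neuroblasts for 5 and microglia for 4, and microglia were higher for 2. Adgrg1, a receptor for type III collagen, was at -2.33 in OPCs and -2.16 in neuroblasts on the log2 scale, next to Ddr2 (-1.10) in OPCs and Itgb1 (-1.38) in neuroblasts. In microglia the inhibitory collagen receptor Lair1 was at 3.57 and Ddr1 at -2.49. Of 13 basement membrane partners 6 were lower and 1 higher in OPCs (Lamb2 -2.40, Sparc -1.88), 8 lower in neuroblasts (Sparc -2.51, Lamb2 -2.44), and 7 lower and 2 higher in microglia (Agrn -2.35, Sparc 2.31). Of 9 interstitial partners 3 were lower in OPCs (Fbln1 -1.53, Fbln2 -1.46), 1 in neuroblasts (Bgn -0.70) and 3 in microglia (Fbln1 -2.21, Fbln2 -1.49). Of 10 breakdown genes OPCs were higher for 2 and lower for 3, with the membrane proteases Mmp15 at 3.00 and Mmp14 at -2.11. Neuroblasts were lower for 4 (Timp3 -4.15, Timp4 -4.14), and microglia lower for 4 and higher for 2 (Timp3 -4.25, Timp4 -4.01). Over all tested genes 19.6% were higher and 12% lower in OPCs, 19.8% and 29.5% in neuroblasts, and 17.1% and 35.1% in microglia. Several counts lay near these shares. Among them were the 2 breakdown genes higher in OPCs and both breakdown counts of microglia. The 3 interstitial partners lower and 2 basement membrane partners higher in microglia were others. With lists of 6 to 13 genes, the remaining counts are description too.

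With the 4 vessel and stromal classes averaged against the 4 neural and microglial ones, 21 collagens were called higher and 1 lower, where 63.1% of all tested genes were called, 30.2% higher and 32.9% lower. The median log2 difference was 1.35 over the collagens and -0.05 over all genes. Col4a1 (5.98 ± 0.07 on the log2 scale, limma adjusted p = 5.87e-23) and Col4a2 (5.92 ± 0.06, 6.59e-24) were the highest, followed by Col3a1 (4.83 ± 0.16), Col18a1 (4.32 ± 0.09) and Col1a2 (4.22 ± 0.08). Col9a3 was the 1 called lower, at -2.20 ± 0.17 (3.56e-10), and Col11a1 (-0.26, 95% interval -0.55 to 0.04) and Col9a2 (0.10, -0.19 to 0.40) were not called. Without the filter on low values 26 of 43 were higher and 6 lower, where 49.7% of 19951 genes were called, 19.1% higher and 30.6% lower, and Col9a1 (-0.56 ± 0.03), Col11a2 (-0.48 ± 0.04) and Col19a1 (-0.39 ± 0.04) joined the lower ones along with Col20a1 and Col2a1.

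In the vessel and stromal classes biosynthesis genes were higher for 14 of 16 and lower for 1, led by Serpinh1 (log2 difference 4.83) and Fkbp10 (3.05). All 7 tested processing genes were higher, led by Pcolce (4.55) and Loxl2 (2.33), all 13 basement membrane partners, led by Nid1 (4.72) and Lamb1 (4.41), and all 9 interstitial partners, led by the proteoglycan gene Bgn (5.76) and the fibronectin gene Fn1 (3.43). Receptors were balanced, with 3 of 6 higher and 3 lower, Itga1 at 4.92 and Adgrg1 at -2.76. Breakdown genes were higher for 8 of 10 and lower for 1, with Ctsk at 3.23 and Timp4 at -2.15. Beside these counts, 30.2% of all tested genes were called higher and 32.9% lower.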

How the data were processed

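Single-cell gene expression was measured in 3 libraries of mouse prefrontal cortex. CASAVA 1.8, Cell Ranger and Seurat were used with the genome build mm10, per the submitters' processing notes, and further settings are not given in the sources used here. The deposited values are on a natural log scale: each of 34958786 values above 0 was ln(1 + a whole number) within 1e-06. Cell totals of these numbers lay between 4422 and 8135, a narrower range than the 121 to 4213 genes found per cell, so they were read as counts corrected for depth by the authors. The depth before correction is unknown and no count model was fitted. Corrected counts summed to 24612481 to 29581504 per library.

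Each cell was rescaled to CPM and averaged per class and library. The tests used limma 3.58.1 under R 4.3.3 on these averages as log2(CPM + 10), with trended variances and the library as a blocking term, since the same 3 libraries hold all classes. All 8 classes had 10 or more cells in each library, which left 14 residual degrees of freedom. A gene was tested when its 8 class levels averaged 10 CPM or more, and p-values were adjusted over all 9881. Suspected doublets, 120, 78 and 89 cells called with Scrublet in scanpy 1.11.5, were kept and were removed in an alternative. A gene at 0 in a class was set to 3 counts over the class for a fold, and 1 to 3 counts got an exact Poisson 95% interval. Both cover counting error only. They treat corrected counts as if these were observed molecules, and take the level of the higher class as exact. Since the depth before correction is unknown, they are rough guides and not measured limits. Ratios were compared with exact permutation tests in scipy 1.17.1. Gene coordinates came from GENCODE and promoter windows from RefSeq, both for the mouse build that mm10 names.

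Collagens that reached 10 CPM in a class were described by name. Of each partner list the 2 called genes with the largest absolute log2 difference per comparison were named. The members, classes and lists were chosen with earlier results of these data known. Alternatives were another pseudocount, no filter, stricter markers, doublets removed, centring, only the compared classes, at least 20 cells per library, no block, each library left out and no rescaling per cell. Array weights, smooth muscle cells that also met the pericyte rule kept, and cells with border macrophage or ependymal transcripts left out were added after the data were seen.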

Additional observations from a re-analysis of the deposited data

Results flagged for a closer look

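Collagen transcripts were also found in the 2054 cells that met no class rule and so entered no comparison, above the 0.252 CPM that 3 counts over those cells amount to. Col9a3 averaged 248.4 CPM there, Col1a1 25.27 CPM, Col11a2 20.13 CPM and Col9a2 13.38 CPM over the 3 libraries. These cells held 32.0% of all Col9a3 counts, 40.5% of all Col11a2 counts and 16.6% of all Col1a1 counts. Of them, 347 had transcripts of both Bcas1 and Enpp6, genes of newly formed oligodendrocytes that were chosen after the values were seen. In those 347 cells Col9a3 averaged 1211 ± 168 CPM and was found in 96.8%, Col11a2 averaged 103 ± 19.98 CPM and Col9a1 40.7 ± 2.81 CPM, with Mbp at 10679 CPM and Pdgfra at 0.805 CPM. In the other 1707 cells of no class Col9a3 averaged 55.4 ± 17.6 CPM. Col1a1 in cells of no class lay mostly in 21 cells with Dcn or Lum, which held 14.8% of all Col1a1 counts at 1905 ± 1619 CPM.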

How the results depend on the processing

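Of 101 alternative counts of called collagens over 7 comparisons, 95 stayed within 1.5 times the reported count. The other 6 were smooth muscle against pericytes, with 4 in place of 7 when only those classes entered the fit and 4 with array weights; OPCs against astrocytes, with 17 in place of 9 without the filter on low values and 14 with array weights; neuroblasts against astrocytes, with 15 in place of 9 with array weights; and microglia against astrocytes, with 7 in place of 11 when at least 20 cells per library were required, a fit that leaves out fibroblasts and smooth muscle and tests 10 collagens. That fit could not be made for comparisons with fibroblasts or smooth muscle. The cause of the other shifts was not tested. Leaving out each library gave 19 to 21 called collagens for fibroblasts against pericytes, 6 to 8 for smooth muscle against pericytes, 12 to 13 for pericytes against endothelium, 7 to 10 for OPCs, 7 to 9 for neuroblasts and 9 to 11 for microglia against astrocytes, and 22 to 23 for vessel and stromal against the other classes. With no replicate block, that is without pairing the classes by library, the counts were 20, 7, 13, 9, 9, 11 and 22, the same as with the block. Centring on the median gene reversed 3 log2 differences that were near 0: Col13a1 became 0.28 in neuroblasts, and Col13a1 and Col6a3 became 0.36 and 0.36 in microglia, against astrocytes. Of 2361 log2 differences of named collagens under an alternative, 33 lost and 65 gained the threshold. The levels of named collagens in their highest class moved by 1 SD or less in 204 of 204 recomputations. Many of these could not have moved further. Leaving out 1 of 3 libraries cannot shift their mean by 1 SD, and keeping more smooth muscle cells changes that class only. The count is therefore no measure of stability. Depth limits fibroblasts and smooth muscle most, where 3 counts amount to 7.397 and 10.4 CPM.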
